A study of Mus musculus with 24 samples.

Results

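The mouse Hox genes lie in 4 clusters, and 33 of their 39 members could be measured on these arrays as single genes. They were chosen by symbol (Hoxa, Hoxb, Hoxc or Hoxd and a number), not by their values, with the brightest probe set over all arrays standing for each gene. The array held 9 of 11 genes of the Hoxa cluster on chromosome 6, 9 of 10 of Hoxb on chromosome 11, 7 of 9 of Hoxc on chromosome 15 and 8 of 9 of Hoxd on chromosome 2. The other members of the clusters were not analysed here. In all, 18193 genes were measured.

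Hox proteins are homeodomain transcription factors that tell cells where along the head-to-tail axis and along the limb they are. Within a cluster the genes are numbered by paralogue group, and those with low numbers are switched on earlier and further toward the head, while those with high numbers serve the posterior trunk, the outer limb and the genital tract. Fibroblasts keep much of the Hox pattern of the place they came from, Polycomb proteins keep silent clusters repressed, and retinoic acid switches on the low-numbered genes in embryonal carcinoma cells.

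RNA was measured on 24 arrays in 8 groups of 3. The groups were MEFs transduced with MyoD lentivirus against untransduced MEFs (batch 1), MEFs labelled as transduced with NeuroD2 lentivirus against untransduced MEFs (batch 2), P19 cells transduced with MyoD against untransduced P19 cells (batch 1), and P19 cells transduced with NeuroD2 against untransduced P19 cells (batch 3). MEFs are mouse embryonic fibroblasts, and all of them, controls included, came from Myod-/-/Myf5-/- mice; P19 is an established mouse embryonal carcinoma line. MyoD and NeuroD2 are basic helix-loop-helix factors of muscle and of neurons. Cells were infected in medium with polybrene at 8 µg/ml and given fresh medium after 24 hours. P19 cells with a factor were harvested at 72 hours. MEFs with MyoD were put in differentiation medium with insulin, transferrin and little horse serum at 48 hours and harvested 36 to 40 hours later. When MEFs labelled NeuroD2 were harvested is not stated in the labels. The controls had no virus and are not stated to have been in that medium, so virus, medium and factor cannot be told apart. Nothing in the labels says that the 3 replicates of a group are separate cultures, and p-values here measure only the spread between these samples, which may be technical. Precision is limited by having 3 arrays a group.

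The factors and arrays were checked before the Hox genes were read. Myod1 RNA was 5.55 higher on the log2 scale in MEFs with MyoD and 3.94 higher in P19 cells with MyoD, each against its controls (limma adjusted p = 1.86e-18 and 1.72e-14), whereas 3 probe sets of Neurod2 differed by -0.06, 0.21 and -0.12 in MEFs labelled NeuroD2 (limma adjusted p = 0.943, 0.679 and 0.791), and 1 of the 3 rose by 1.70 in P19 cells with NeuroD2 (limma adjusted p = 1.85e-06). A second, dim Myod1 probe set differed by 0.06 in MEFs and 0.10 in P19 cells with MyoD (limma adjusted p over all probe sets = 0.867 and 0.567). Whether each of these probe sets reads the transgene is not known. The cell labels matched their markers: all 8 fibroblast markers were higher and all 8 pluripotency markers lower in MEF controls than in P19 controls. P19 control replicate 2 of batch 1 stood apart. Its quartiles were 4.79 and 7.63, against 4.47 to 4.58 and 8.23 to 8.39 on the other 23 arrays, and its mean correlation with its own group was 0.919, against 0.960 and 0.957 for its partners and 0.984 to 0.998 for the other 21 arrays. Of the 33 Hox genes, 23 were higher on it than on both partner arrays (69.7%, against 38.2% of all genes). Hoxa5 read 10.59 there against 7.21 and 7.25 on the partners, Hoxa7 read 9.01 against 6.45 and 6.16, and Hoxc6 read 9.04 against 6.25 and 5.79. All arrays share one estimate of spread, so results are given with and without it.

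Bright here means a group mean over 7.03, the median of the values of all genes. Signal was bright for 16 of the 33 Hox genes in the MEF controls of either batch, and for 3 and 2 genes in the P19 controls of batches 1 and 3. In both MEF control groups that is 48.5% of the Hox genes, against 49.9% and 49.6% of all genes. In the P19 controls it is 9.1% and 6.1%, against 49.8% and 50.4% of all genes. Without replicate 2 of the P19 controls of batch 1 their count was 1, Hoxa5, since Hoxa7 and Hoxc9 passed only through that array. Hoxa5 was bright there by its kept probe set, of a kind that can match several transcripts. Its other probe set read 5.40 and 5.20 in the P19 controls of batches 1 and 3. In the MEF controls of batches 1 and 2 it read 8.91 and 8.67. A probe set's brightness also depends on its probes, so genes are not ranked against each other. The bright genes of both MEF control groups were Hoxa2, Hoxa5, Hoxa7, Hoxb2 to Hoxb6, Hoxc4, Hoxc5, Hoxc6, Hoxc8, Hoxc9, Hoxd3, Hoxd8 and Hoxd9. Paralogue groups 1 to 9 held all 16, and 0 of the 10 measured genes of groups 10 to 13 were bright in any of the 8 groups. Those 10 genes, which pattern the hind end of the trunk, the outer limb and the genital tract, had group means between 3.81 and 5.90. Hoxd10 stayed between 3.81 and 4.10 in every group. MEFs with MyoD had 11 bright Hox genes and MEFs labelled NeuroD2 had 15 (33.3% and 45.5%, against 49.3% of all genes in each). P19 cells with MyoD had 1, Hoxa5 by its kept probe set, and P19 cells with NeuroD2 had 0. These are 3.0% and 0%, against 50.3% and 51.3% of all genes.

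**Figure D1:**
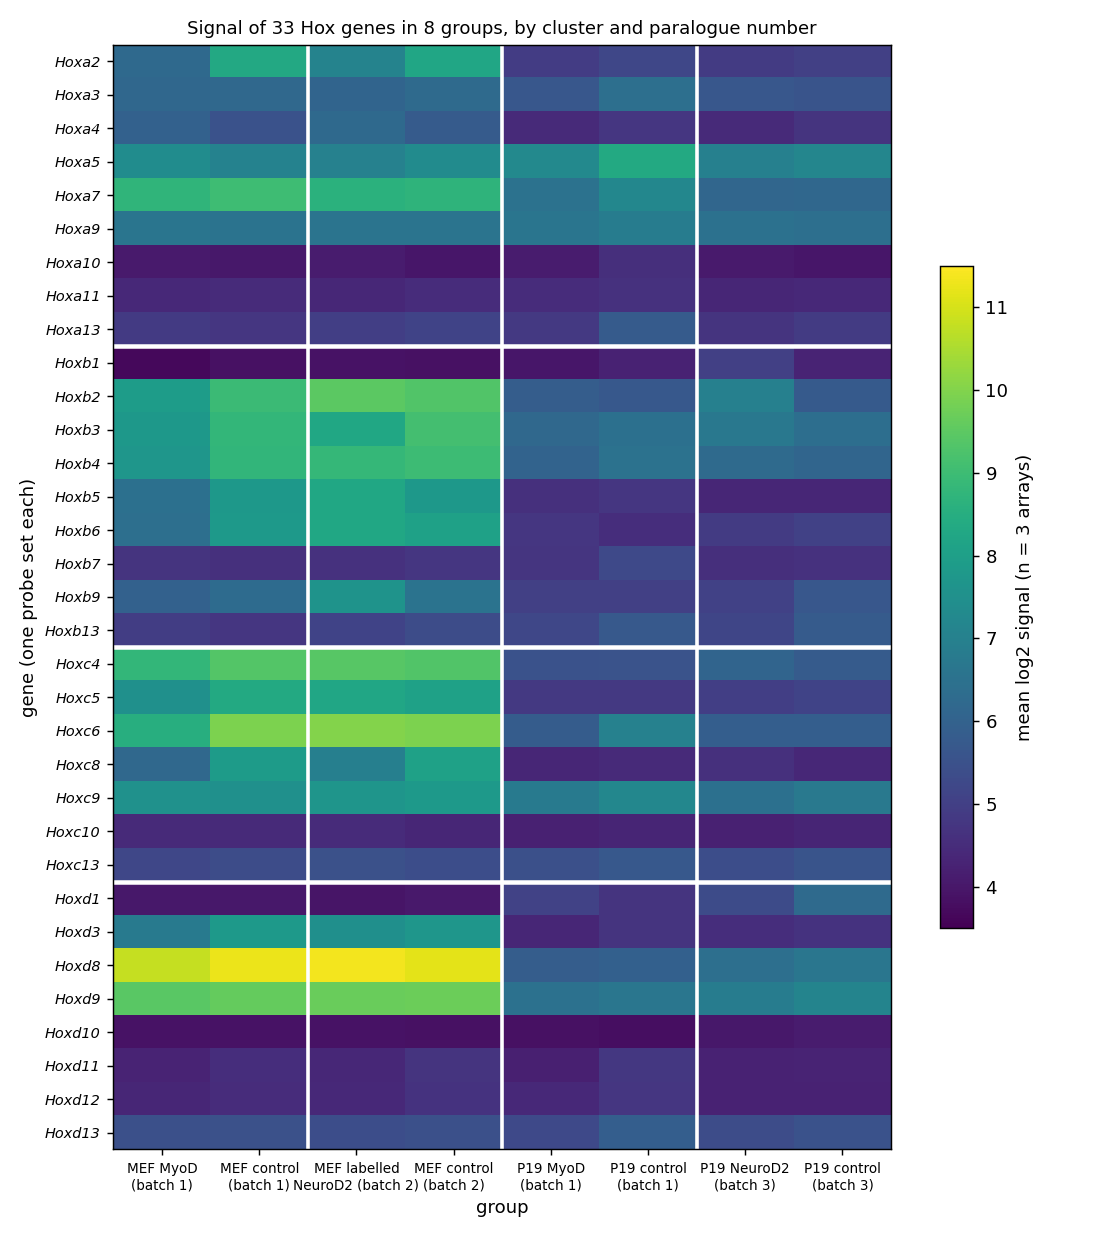
Mean log2 signal of the 33 Hox genes (rows, by cluster and paralogue number) in the 8 groups (columns, 3 arrays each), with each factor group left of its control. Colours are to be compared along a row. In the MEF columns the bright genes end at paralogue group 9, and groups 10 to 13 stay dark in all columns.

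MEF controls were higher than P19 controls of batch 1 in 16 Hox genes and lower in 6, as tested with limma at an adjusted p under 0.05 over all genes; 24.8% of all genes were called higher and 26.9% lower. Beyond the count, the sizes were large: Hoxd8, a gene of the trunk and proximal limb, read 11.28, 11.34 and 11.19 in MEF controls, against 6.03, 5.79 and 6.03 in P19 controls, a difference of 5.32 ± 0.14 (SE) or 40.0-fold (limma adjusted p = 2.18e-17). The Hox genes had a median difference of 0.34, against -0.12 over all genes, and without P19 control replicate 2 these medians were 0.74 and -0.05. Groups did not overlap for 14 genes higher in MEFs and 5 lower, against 25.8% of all genes each way. In bulk RNA, a group with fewer cells that carry a transcript and one with less of it per cell cannot be told apart.

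The next 5 rises by size were in 3 genes of the Hoxc cluster and 2 of Hoxb. Hoxc4, a gene of the neck and upper chest, read 9.51, 9.27 and 9.30 in MEF controls, against 5.66, 5.80 and 5.19 in P19 controls. Hoxc5, its neighbour, read 8.23, 8.43 and 8.43 in MEF controls, against 4.87, 4.60 and 4.97 in P19 controls. Hoxc8, which patterns the thoracic ribs, read 7.92, 7.85 and 7.89 in MEF controls, against 4.67, 4.20 and 4.50 in P19 controls. In these 3 genes of the Hoxc cluster no MEF array came near a P19 array, with differences of 3.81, 3.55 and 3.43 (limma adjusted p = 5.93e-14, 7.5e-15 and 8.09e-14). Hoxb6, a gene of the trunk and limb bud, differed by 3.25 and Hoxb2, a hindbrain and neural crest gene, by 3.24 (limma adjusted p = 3.92e-13 and 6.32e-13), again with groups that did not overlap. By paralogue group, 4 of 7 genes of groups 1 to 3, 10 of 12 of groups 4 to 8, 2 of 4 of group 9 and 0 of 10 of groups 10 to 13 were higher in MEFs. These counts rest on the kept probe set of each gene. For Hoxa3 and Hoxa9, which were not called, another probe set was higher in MEFs, by 2.18 and 1.24. Their limma adjusted p over all probe sets was 1.34e-08 and 1.4e-07, while the remaining Hoxa3 probe sets were not called.

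Of the 6 lower calls, 2 held without P19 control replicate 2, those of Hoxb13 and Hoxd1. Hoxb13, a gene of the tail end and the prostate, read 4.71, 4.80 and 4.75 in MEF controls, against 5.54, 6.06 and 5.61 in P19 controls (difference -0.98, limma adjusted p = 0.000698). Hoxd1 read 3.99, 4.01 and 4.05 in MEF controls, against 4.82, 4.26 and 5.07 in P19 controls (difference -0.70, limma adjusted p = 0.0438). Groups did not overlap for either gene, and without that array they differed by -0.82 and -0.93 (limma adjusted p = 0.0036 and 0.00987). Both genes were dim in both groups. In the MEF controls of batch 2 Hoxb13 read 5.13, 5.23 and 5.72, which overlaps these P19 values. Hoxd1 read 3.97, 3.99 and 4.15 there, which does not. The other 4 were Hoxa5 (-1.30), Hoxb7 (-0.64), Hoxa10 (-0.56) and Hoxc13 (-0.34), with limma adjusted p = 0.0424, 0.0384, 0.0426 and 0.0211. These 4 were no longer called without P19 control replicate 2 (limma adjusted p = 0.315, 0.329, 0.381 and 0.0842), and Hoxa3 (0.52) and Hoxc9 (0.74) were added as higher. The counts were then 18 higher and 2 lower, against 24.1% and 31.4% of all genes. For Hoxa5, which patterns the lung and the neck vertebrae, the direction depended on the probe set: the kept one, of a kind that can match several transcripts, differed by -1.30, while the other differed by 3.50 (8.91 in MEF controls against 5.40 in P19 controls, limma adjusted p = 3.94e-10 over all probe sets).

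In MEFs with MyoD, 12 Hox genes fell and 0 rose, against 14.5% of all genes called lower and 10.8% called higher. The falls lay in all 4 clusters: 1 of 9 in Hoxa, 5 of 9 in Hoxb, 4 of 7 in Hoxc and 2 of 8 in Hoxd. By paralogue group they were 4 of 7 genes in groups 1 to 3, 8 of 12 in groups 4 to 8, 0 of 4 in group 9 and 0 of 10 in groups 10 to 13. Those 10 genes were dim in the MEF controls of batch 1, with means of 3.88 to 5.49, so a fall there could be missed. The median over the 33 genes was -0.16, against 0.00 over all genes. Groups did not overlap for 16 genes lower in MEFs with MyoD and 3 higher, against 30.1% and 27.1% of all genes.

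MyoD and NeuroD2 bind the E-box CANNTG, so the stretch ahead of the start of 4 of the fallen genes is shown here, 5′ to 3′ on the gene's own strand, with each E-box in capitals. The sequences are the 250 bases before the RefSeq gene start (build GRCm38.p6): Hoxa2 at chr6:52164832-52165081 (minus strand), Hoxb4 at chr11:96318017-96318266 (plus strand), Hoxd3 at chr2:74711743-74711992 (plus strand) and Hoxd8 at chr2:74704365-74704614 (plus strand).
Hoxa2: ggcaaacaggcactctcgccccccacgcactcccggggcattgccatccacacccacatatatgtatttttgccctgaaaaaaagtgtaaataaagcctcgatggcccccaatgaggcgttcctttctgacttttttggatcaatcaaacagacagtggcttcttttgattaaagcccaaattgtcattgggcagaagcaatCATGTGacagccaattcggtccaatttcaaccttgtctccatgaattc
Hoxb4: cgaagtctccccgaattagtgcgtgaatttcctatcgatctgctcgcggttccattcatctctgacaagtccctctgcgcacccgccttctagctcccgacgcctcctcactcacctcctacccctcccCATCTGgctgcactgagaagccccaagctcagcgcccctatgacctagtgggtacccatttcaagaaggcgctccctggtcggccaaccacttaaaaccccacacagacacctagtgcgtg
Hoxd3: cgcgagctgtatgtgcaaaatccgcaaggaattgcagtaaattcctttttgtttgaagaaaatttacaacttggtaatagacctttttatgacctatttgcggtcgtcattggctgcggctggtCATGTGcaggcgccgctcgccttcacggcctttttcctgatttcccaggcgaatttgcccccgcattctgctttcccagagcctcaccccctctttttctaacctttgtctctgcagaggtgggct
Hoxd8: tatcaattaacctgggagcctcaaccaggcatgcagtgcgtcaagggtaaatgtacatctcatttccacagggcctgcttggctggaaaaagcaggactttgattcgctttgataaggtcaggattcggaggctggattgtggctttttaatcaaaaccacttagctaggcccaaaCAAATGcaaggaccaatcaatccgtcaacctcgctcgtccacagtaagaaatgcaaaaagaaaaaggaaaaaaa
Each window held 1 E-box: CATGTG 48 bases before the start in Hoxa2, CATCTG at 121 in Hoxb4, CATGTG at 126 in Hoxd3 and CAAATG at 74 in Hoxd8. Of the 12 fallen genes, 5 matched the promoter table, and Hoxc4, the fifth, had no CANNTG in its window. The motif reads the same on both strands, and it was in 4 of these 5 windows, in 17 of all 24 Hox windows and in 66.2% of all 32851 windows of this length. The narrower forms CAGCTG (13% of all windows), CAGGTG (17.2%) and CAGATG (14.4%), each searched on both strands and each also a CANNTG, were in 0, 0 and 1 of the 5 windows, the 1 being Hoxb4, which reads CATCTG on this strand. A match is a string of letters and was not tested as a binding site.

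Of the low-numbered genes, Hoxa2, which sets the identity of the second branchial arch, fell most. Its signal was 6.40, 6.07 and 6.26 in MEFs with MyoD, against 8.46, 8.27 and 8.22 in controls, a difference of -2.07 ± 0.18 (SE), or 0.238 of the control level (limma adjusted p = 8.93e-09). Hoxb2 read 8.01, 7.91 and 7.84 in MEFs with MyoD, against 9.01, 8.92 and 8.93 in controls. Hoxb3 read 7.89, 7.66 and 7.77 in MEFs with MyoD, against 8.79, 8.97 and 8.59 in controls. Hoxb2 and Hoxb3, hindbrain genes that adjoin each other in the cluster, thus fell by like amounts, -1.03 and -1.01 (limma adjusted p = 4.17e-05 and 0.000227). Hoxd3, which shapes the first vertebrae of the neck, read 6.87, 6.77 and 6.69 in MEFs with MyoD, against 7.86, 8.02 and 7.65 in controls (difference -1.07, limma adjusted p = 2.04e-06). Every MyoD array lay below every control array for these 4 genes, while Hoxa3, Hoxb1 and Hoxd1 were not called and differed by -0.01, -0.17 and -0.01.

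Of the middle genes, the trunk genes Hoxc8, Hoxc6, Hoxb6 and Hoxb5 fell most. Hoxc8 read 5.91, 6.27 and 6.39 in MEFs with MyoD, against 7.92, 7.85 and 7.89 in controls (difference -1.70 ± 0.15 SE, limma adjusted p = 1.64e-08). Hoxb6 read 6.04, 6.52 and 6.68 in MEFs with MyoD, against 7.63, 7.86 and 7.88 in controls (difference -1.38, limma adjusted p = 6.72e-07). Hoxb5, which positions the shoulder girdle, read 6.51, 6.38 and 6.45 in MEFs with MyoD, against 7.71, 7.79 and 7.76 in controls (difference -1.31, limma adjusted p = 9.43e-07). All 3 were above 7.03 in every control array and below it in every MyoD array. Hoxc6 read 8.64, 8.55 and 8.35 in MEFs with MyoD, against 10.02, 9.92 and 9.82 in controls. Its fall of -1.41 had limma adjusted p = 0.0304 with a wide error (SE 0.47) although its MEF arrays were tight; its spread over the P19 controls, 1.76 (SD), entered the shared estimate. Leaving out any 1 of the 6 MEF arrays gave limma adjusted p = 0.0581 to 0.095 for Hoxc6, and without P19 control replicate 2 of batch 1 it was 1.49e-09. Hoxb4 (-1.05), Hoxc5 (-0.86), Hoxc4 (-0.56) and Hoxd8 (-0.47) also fell, with limma adjusted p = 0.00146, 4.28e-05, 0.0144 and 0.0157. For Hoxd8 the arrays read 10.85, 10.79 and 10.75 in MEFs with MyoD, against 11.28, 11.34 and 11.19 in controls, so it stayed bright at 0.721 of its control level.

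**Figure D2:**
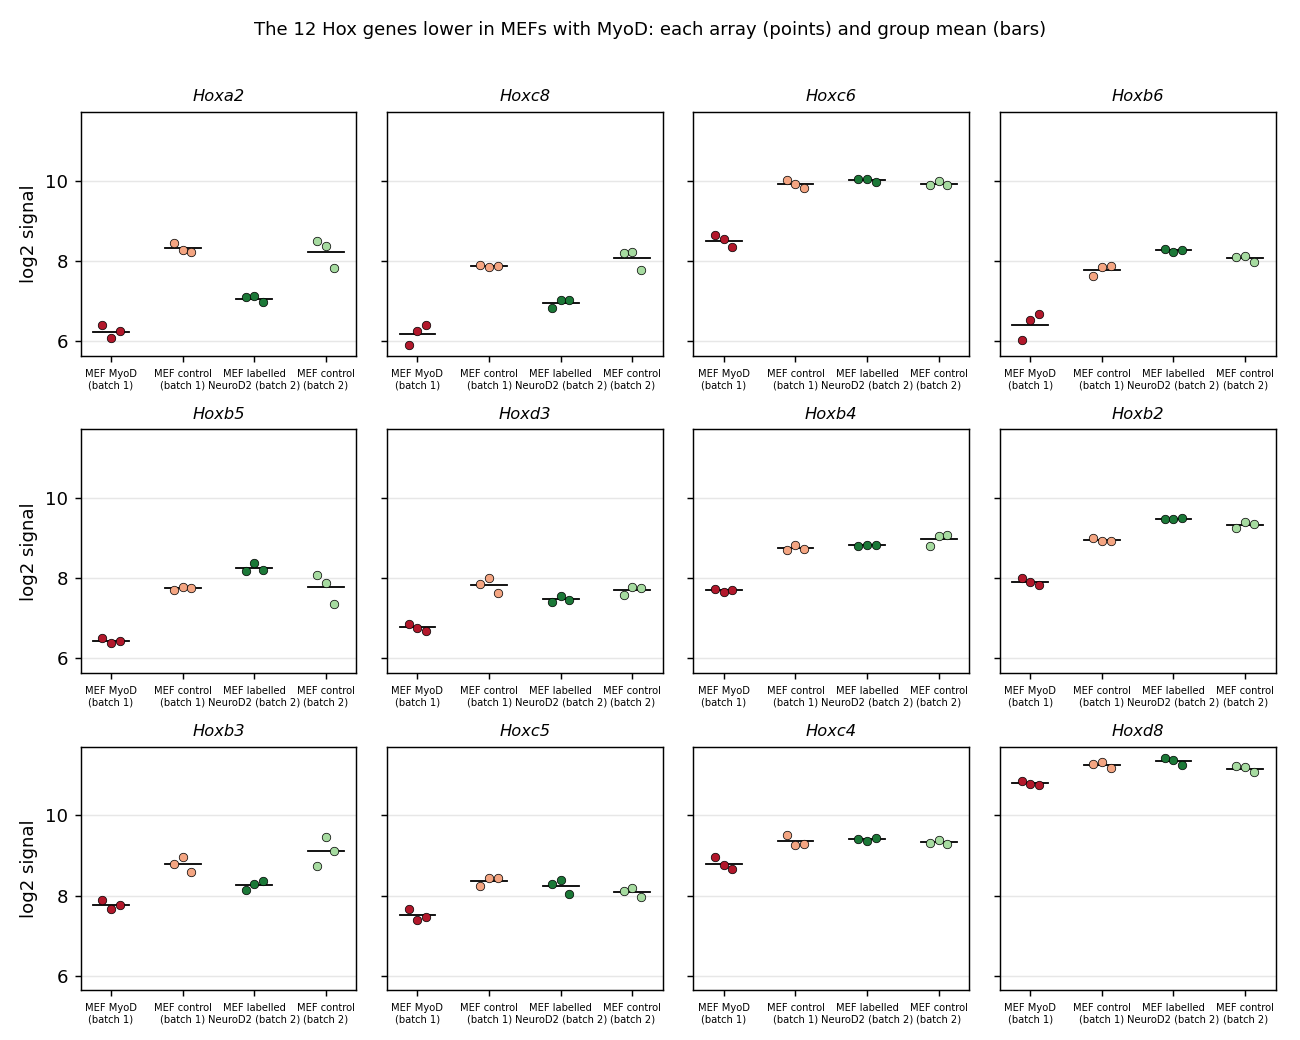
Log2 signal of the 12 Hox genes called lower in MEFs with MyoD, in order of the size of the fall, with 1 point per array and a bar at the mean of 3 arrays. The MyoD points lie below all 3 batch 1 control points in each panel. In MEFs labelled NeuroD2, Hoxa2, Hoxc8 and Hoxb3 lie below their own batch 2 controls.

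Among the genes that did not pass were bright ones. Hoxd9, the next gene of the cluster after Hoxd8, read 9.49, 9.41 and 9.41 in MEFs with MyoD, against 9.66, 9.64 and 9.49 in controls, and Hoxc9, the next after Hoxc8, read 7.51, 7.60 and 7.51 against 7.52, 7.53 and 7.54. Their differences were -0.16 (95% interval -0.43 to 0.12) and 0.01 (-0.41 to 0.43). Hoxa7 read 8.73, 8.73 and 8.75 in MEFs with MyoD, against 8.94, 9.12 and 8.97 in controls (difference -0.27, limma adjusted p = 0.791). Without P19 control replicate 2 of batch 1 the counts were 13 lower and 2 higher, against 22.5% and 18.1% of all genes, with all 12 falls among them; the additions were Hoxa7 (-0.27), Hoxa5 (0.34) and Hoxa4 (0.47). Group 9 genes and genes of groups 10 to 13 were not among the additions. The Hoxa5 rise is that of its kept probe set, of a kind that can match several transcripts. Its other probe set went the opposite way with all arrays, by -1.05 (limma adjusted p over all probe sets = 0.00388).

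To set bright and dim probe sets apart, the falls were also read against the level in the MEF controls of batch 2. The differences are taken without those arrays, though they share in the estimate of spread behind each call and in the choice of probe sets. Of the 16 Hox genes above 7.03 there, 12 fell with MyoD, against 25.1% of all 9015 genes above it, and of the 17 at or under it, 0 fell, against 4.07% of 9178 genes. The 4 bright genes that were not called were Hoxa5, Hoxa7, Hoxc9 and Hoxd9. Median differences were -1.02 over the 16 bright Hox genes and -0.09 over all bright genes. With the batch 2 controls in place of those of batch 1, 11 Hox genes were lower, all among the 12. The share of all genes called lower in that comparison, which crosses batches, was not taken.

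**Figure D3:**
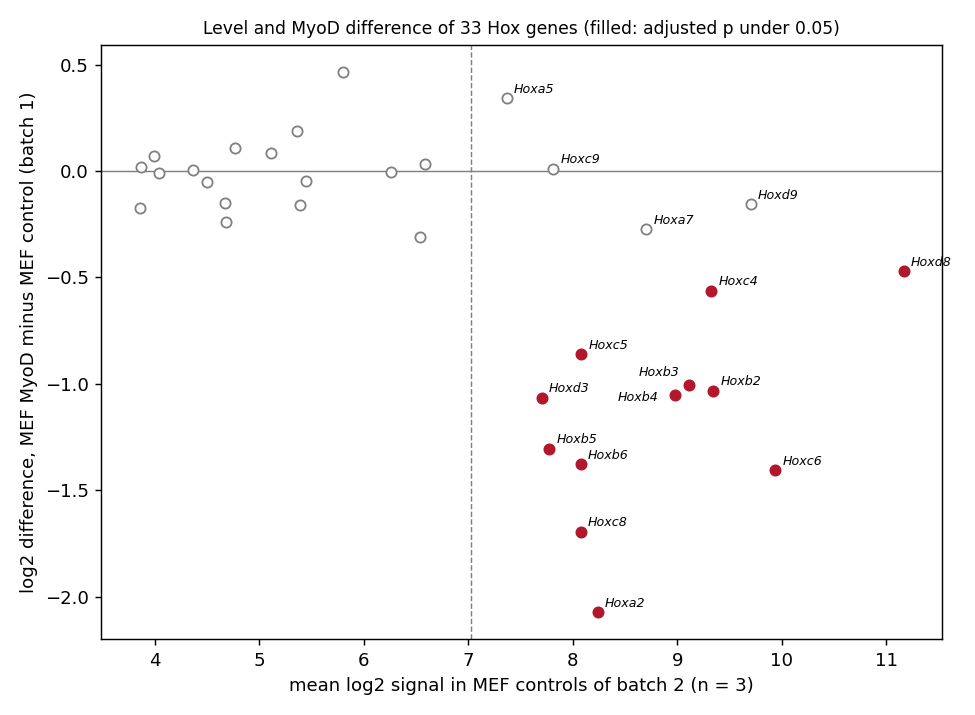
Log2 difference between MEFs with MyoD and their batch 1 controls (vertical) against the mean log2 signal in the MEF controls of batch 2 (horizontal), with 1 point per Hox gene and filled points for an adjusted p under 0.05. All 12 filled points lie right of the dashed line at 7.03, as do Hoxa5, Hoxa7, Hoxc9 and Hoxd9, which are open.

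Other probe sets of the same genes gave the following. Of the 12 fallen genes, 5 had 7 further probe sets, of which 2 were also called lower, 0 higher and 5 were not called. The 2 were a second Hoxb3 probe set, at 8.41 in MEFs with MyoD against 10.10 in controls (difference -1.69), and a second Hoxb4 probe set, at 6.16 against 6.94 (-0.78), with limma adjusted p over all probe sets = 2.87e-07 and 0.00454. For 2 genes outside the 12, a probe set other than the brightest fell: Hoxa3, another neck gene, by -1.12 (6.21 in MEFs with MyoD against 7.33 in controls), and Hoxa5 by -1.05 (7.85 against 8.91), with limma adjusted p = 0.000214 and 0.00388. These were picked out after their values were seen.

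Cell markers moved with the MyoD groups. Mean log2 signal of 8 fibroblast markers was 10.84 to 10.97 on the MEF arrays with MyoD, against 12.85 to 12.99 on control arrays, and 6 of the 8 fell. Mean signal of 8 skeletal muscle markers was 13.27 to 13.32 with MyoD, against 5.12 to 5.25 in controls, and 8 of 8 rose. Their part in the fall of the Hox genes was not tested.

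In MEFs labelled NeuroD2, 2 Hox genes rose and 3 fell against the batch 2 controls, where 6.41% of all genes were called higher and 5.94% lower. Hoxb9, which patterns the ribs, read 7.70, 7.67 and 7.42 in MEFs labelled NeuroD2, against 6.83, 6.58 and 6.22 in controls, a rise of 1.06 ± 0.21 (SE), or 2.08-fold (limma adjusted p = 0.00108). Hoxb5 read 8.18, 8.39 and 8.21 in MEFs labelled NeuroD2, against 8.07, 7.89 and 7.36 in controls (rise 0.49, limma adjusted p = 0.0426). Both are genes of the Hoxb cluster, and in both the groups did not overlap, as for 6 Hox genes higher and 5 lower (22% and 21.9% of all genes). The Hoxb5 call was lost without control replicate 2 or 3 or any 1 of the arrays labelled NeuroD2 (limma adjusted p = 0.0585 to 0.329), and without control replicate 3, at 7.36, the difference was 0.28.

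The 3 falls were in Hoxa2, Hoxc8 and Hoxb3. Hoxa2 read 7.10, 7.12 and 6.99 in MEFs labelled NeuroD2, against 8.50, 8.39 and 7.84 in controls (difference -1.17, limma adjusted p = 6.27e-05). Hoxc8 read 6.82, 7.02 and 7.04 in MEFs labelled NeuroD2, against 8.21, 8.23 and 7.79 in controls (difference -1.12, limma adjusted p = 1.54e-05). Hoxb3 read 8.14, 8.28 and 8.36 in MEFs labelled NeuroD2, against 8.74, 9.47 and 9.12 in controls (difference -0.85, limma adjusted p = 0.00261). In none of the 3 did the groups overlap. All 3 were also among the 12 that fell with MyoD, which has its own controls. That is 100% of the 3 and 25% of the 12. The like overlap over all genes was not counted, so nothing particular to the Hox genes is read from it. A second probe set of Hoxb3 fell too, by -0.97, and 1 of the other probe sets of Hoxa3 by -0.88 (limma adjusted p over all probe sets = 0.000664 and 0.00466). Hoxd11 (-0.30) was added without P19 control replicate 2 of batch 1 and the 5 calls stayed, with 13.8% of all genes higher and 13.3% lower.

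Markers of fibroblasts and neurons moved little in MEFs labelled NeuroD2. Mean log2 signal of the 8 fibroblast markers was 13.01 to 13.08, against 13.26 to 13.32 in controls, with 1 of 8 lower. Mean signal of the 8 neuron markers was 5.47 to 5.54, against 5.16 to 5.29 in controls, with 1 higher and 1 lower. Their part in the Hox differences was not tested.

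**Figure D4:**
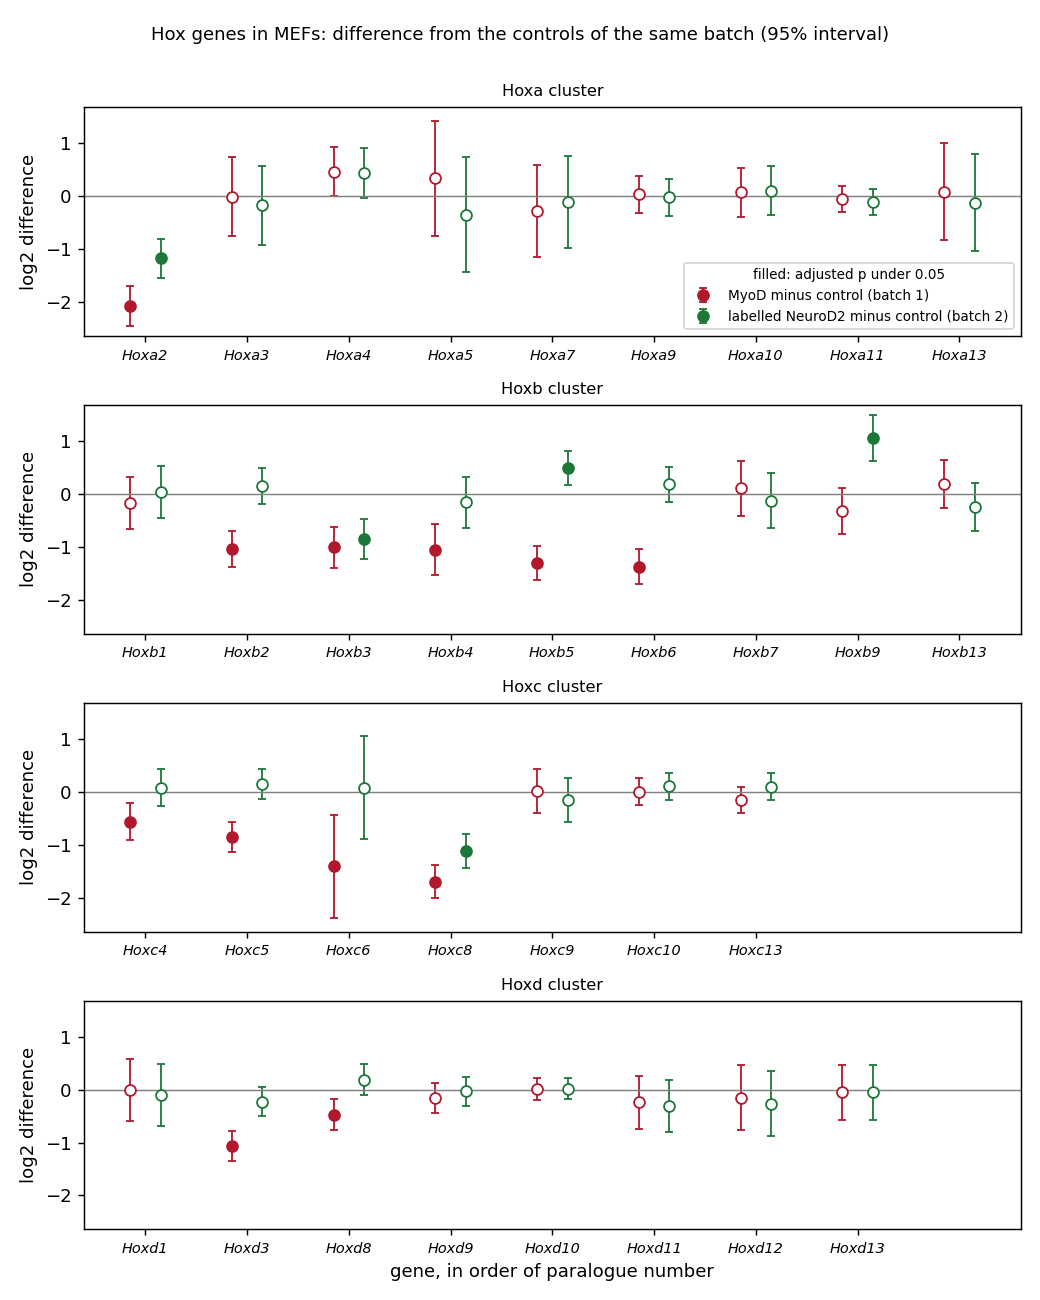
Log2 difference of each Hox gene from the MEF controls of its own batch (points) with its 95% interval (bars), by cluster and paralogue number, for MyoD (red) and the label NeuroD2 (green). Filled points have an adjusted p under 0.05. The red filled points run over Hoxa2, Hoxb2 to Hoxb6, Hoxc4 to Hoxc8, Hoxd3 and Hoxd8; the green ones are Hoxa2, Hoxb3, Hoxb5, Hoxb9 and Hoxc8.

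The difference between the MyoD and the NeuroD2 effects in MEFs was itself tested. Limma called 8 Hox genes lower and 0 higher for the MyoD effect minus the effect in MEFs labelled NeuroD2, against 10.5% and 8.33% of all genes. Hoxb5 had the largest difference, -1.79, with -1.31 for MyoD and 0.49 for the label NeuroD2 (limma adjusted p = 2.45e-06). Hoxb6 differed by -1.57 (-1.38 and 0.19), Hoxb9 by -1.37 (-0.31 and 1.06) and Hoxb2 by -1.18 (-1.03 and 0.15), with limma adjusted p = 2.08e-05, 0.00171 and 0.000682. These 4 genes of the Hoxb cluster were thus lower under MyoD relative to the label NeuroD2. The 2 groups differ in batch as well as in the factor and may differ in medium and harvest, and these cannot be told apart. Without P19 control replicate 2 of batch 1 the counts were 12 lower and 1 higher, against 19.4% and 16.3% of all genes, with the 8 included.

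P19 cells with NeuroD2 had 1 Hox gene called higher and 1 lower, against 5.1% and 3.24% of all genes. Hoxb2 read 6.67, 7.29 and 7.01 in P19 cells with NeuroD2, against 5.84, 6.06 and 5.41 in controls of batch 3, a rise of 1.22 ± 0.16 (SE), or 2.33-fold (limma adjusted p = 2.21e-05). Hoxd1, a gene of sensory neurons, read 5.07, 5.48 and 5.43 in P19 cells with NeuroD2, against 7.22, 5.85 and 5.69 in controls (difference -0.93, limma adjusted p = 0.0452). Neither gene's groups overlapped, as for 3 Hox genes higher and 5 lower (11.7% and 14.3% of all genes). The Hoxd1 call was lost without any 1 of the NeuroD2 arrays (limma adjusted p = 0.0835 to 0.168) or without control replicate 1, at 7.22, where the difference was -0.44 (limma adjusted p = 0.276). The neighbours of Hoxb2 in the cluster were not called: Hoxb1, which specifies facial motor neurons, read 4.33, 5.41 and 5.33 in P19 cells with NeuroD2, against 4.30, 4.26 and 4.33 in controls (difference 0.73, limma adjusted p = 0.0617), and Hoxb3 differed by 0.31 (limma adjusted p = 0.461).

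Without P19 control replicate 2 of batch 1, 2 Hox genes were higher and 4 lower in P19 cells with NeuroD2, against 10.9% and 11.2% of all genes. The additions were Hoxb1 (0.73), Hoxb9 (-0.62), Hoxb13 (-0.60) and Hoxc9 (-0.29), with limma adjusted p = 0.00587, 0.0098, 0.0361 and 0.00861. For Hoxb9 the arrays read 4.73, 5.17 and 5.28 in P19 cells with NeuroD2, against 5.76, 5.50 and 5.77 in controls, a direction opposite to its rise in MEFs labelled NeuroD2. All 8 neuron markers rose in P19 cells with NeuroD2, with a mean log2 signal of 9.65 to 10.38, against 7.47 to 7.70 in controls. The part of these markers in the Hox differences was not tested.

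In P19 cells with MyoD, 0 Hox genes were called by limma, against 2.03% of all genes higher and 0.676% lower, although 10 had an unadjusted p under 0.05. The largest differences were in Hoxc6, at 5.96, 5.83 and 5.73 in P19 cells with MyoD against 6.25, 9.04 and 5.79 in controls (-1.19, limma adjusted p = 0.136), and Hoxa5, at 7.37, 7.15 and 7.24 against 7.21, 10.59 and 7.25 (-1.10, limma adjusted p = 0.164). In both, 1 control array set the difference: without it, Hoxa5 differed by 0.03 and Hoxc6 by -0.18, the count of called Hox genes was again 0, and 2 had an unadjusted p under 0.05. Of all genes, 2.09% were then called higher and 1.85% lower. Groups did not overlap for 0 genes higher and 4 lower in P19 cells with MyoD, against 13.9% and 8.77% of all genes. Without control replicate 1 or 3, which leaves the odd array with more weight, 10 and 14 Hox genes were called lower. Against the P19 controls of batch 3 there were 4 calls, all lower. Shares of all genes were not taken for these settings, so nothing particular to the Hox genes is read from these counts. Of 8 muscle markers, 6 rose in these cells, with a mean log2 signal of 8.68 to 8.73, against 6.63 to 6.74 in controls.

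**Figure D5:**
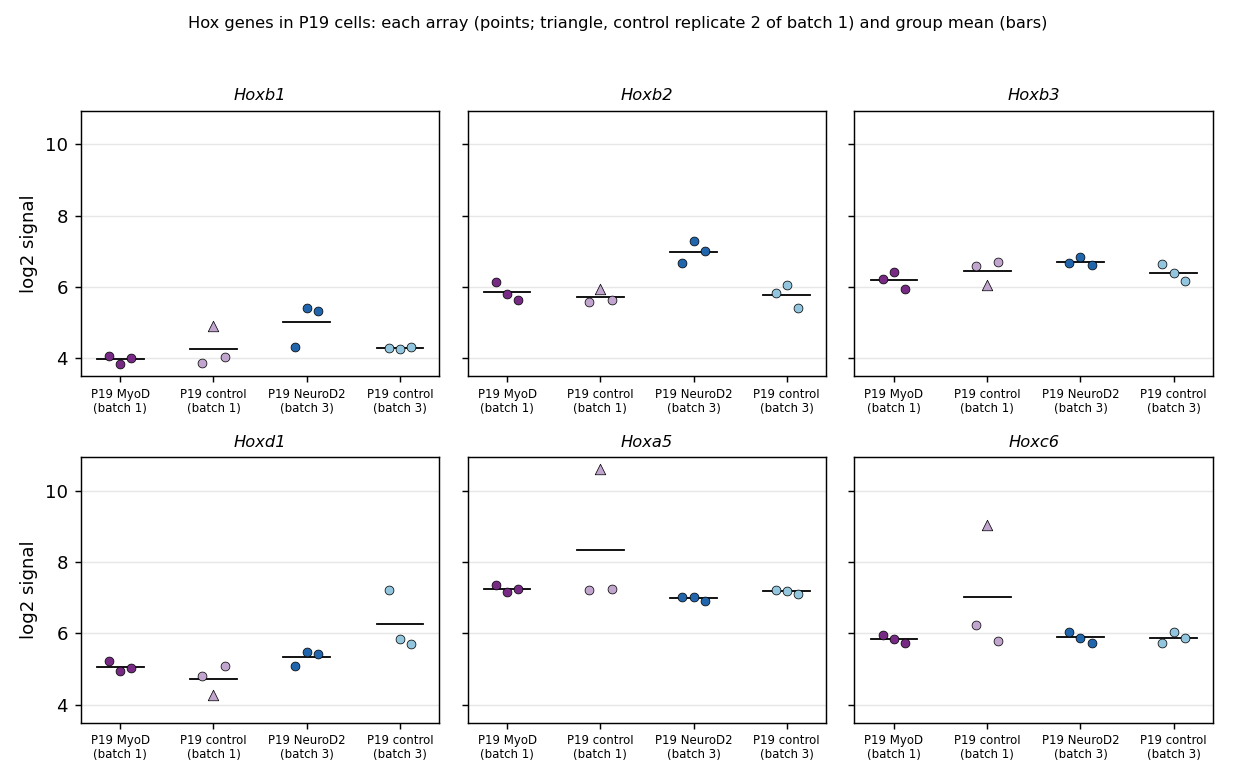
Log2 signal of 6 Hox genes in the P19 groups, with 1 point per array and a bar at the mean of 3 arrays; the triangle is control replicate 2 of batch 1. Hoxb2 is higher in all 3 NeuroD2 arrays, 1 control array of batch 3 stands above the rest in Hoxd1, and the triangle stands far above both partner arrays in Hoxa5 and Hoxc6.

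Effects were also compared between the cell types. For MyoD, 8 Hox genes had a lower effect in MEFs than in P19 cells and 0 a higher one, against 14.7% and 6.39% of all genes. Hoxa2 differed by -1.79 (-2.07 in MEFs and -0.28 in P19 cells), Hoxb6 by -1.62 (-1.38 and 0.24), Hoxc8 by -1.60 (-1.70 and -0.10) and Hoxb2 by -1.18 (-1.03 and 0.15), with limma adjusted p = 1.86e-05, 1.53e-05, 1.04e-05 and 0.000707. None of the 4 was bright in P19 cells with MyoD or in their controls. For NeuroD2, 1 gene had a higher and 4 a lower effect in MEFs labelled NeuroD2 than in P19 cells, against 4.53% and 5.63% of all genes. Hoxb9 differed by 1.67 (1.06 in MEFs labelled NeuroD2 and -0.62 in P19 cells), Hoxc8 by -1.34, Hoxb3 by -1.16, Hoxb2 by -1.07 (0.15 and 1.22) and Hoxa2 by -1.04, with limma adjusted p = 0.000427, 0.000151, 0.00447, 0.00291 and 0.00815. None of these genes was bright in P19 cells with NeuroD2 or in their controls, so falls in P19 cells could be missed. Within P19 cells the MyoD effect minus the NeuroD2 effect was called for 1 gene, Hoxb2, at -1.07 (0.15 and 1.22; limma adjusted p = 0.00613), against 2.93% of all genes lower and 2.6% higher. These counts without P19 control replicate 2 of batch 1 were 11 lower and 0 higher for MyoD, against 16.8% and 13.7% of all genes. Of the 8 MyoD calls, Hoxb3 was lost. For NeuroD2 they were 2 higher and 5 lower, against 12.6% and 12.3% of all genes. Within P19 cells they were 2 lower and 0 higher, against 6.45% and 4.52%.

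Hox proteins bind DNA with TALE homeodomain partners of the Pbx, Meis and Pknox families, and 8 of 9 listed partners were measured. Beside the counts of this and the following lists stand the shares of all genes called higher and lower, which were 10.8% and 14.5% for MyoD in MEFs, 6.41% and 5.94% for MEFs labelled NeuroD2, 5.1% and 3.24% for NeuroD2 in P19 cells, 2.03% and 0.676% for MyoD in P19 cells, and 24.8% and 26.9% for MEF against P19 controls. Nothing particular to a list is read from its count. In MEFs with MyoD 3 of 8 partners rose and 1 fell: Pknox2 rose by 3.56 (8.64, against 5.09 in controls), Pbx3 by 1.20 and Pknox1 by 0.49, and Meis3 fell (-0.74). Pknox2 also rose in MEFs labelled NeuroD2, by 2.28 (7.33, against 5.05 in controls; limma adjusted p = 1e-12 with MyoD and 4.1e-09 with the label NeuroD2), and was the 1 partner called there. Meis1, at 7.52 against 5.86 in controls, and Meis3 rose in P19 cells with NeuroD2 (1.66 and 0.82). In P19 cells with MyoD Pknox2 was the 1 call, at 0.69.

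Retinoic acid genes and other upstream inputs of the clusters came next. Of 15 measured genes, 2 rose and 2 fell in MEFs with MyoD, close to the 10.8% and 14.5% of all genes: Crabp1, a retinoic acid binding protein, fell (-2.48) and its relative Crabp2 rose (1.65), the receptor gene Rarg fell (-0.90) and Cyp26b1, which degrades retinoic acid, rose (0.95). In MEFs labelled NeuroD2 1 rose and 3 fell, with Crabp2 at -1.13, Crabp1 at -0.58, Rara at -0.56 and Cyp26b1 at 0.55. In P19 cells with NeuroD2 2 rose and 2 fell, with Crabp1 at 4.20 (10.59, against 6.39 in controls; limma adjusted p = 1.52e-16), Rarg at -1.21, Cyp26b1 at 1.10 and Rara at -0.67. In P19 cells with MyoD 1 rose and 2 fell, with Rarb, a retinoic acid receptor, at 1.22, Cyp26a1, another degrading enzyme, at -1.14 and Rarg at -0.52.

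Of 19 measured Polycomb genes, which keep Hox clusters silent, 0 rose and 3 fell in MEFs with MyoD (10.8% and 14.5% of all genes), which were Cbx6 (-1.50), Pcgf2 (-1.07) and Phf1 (-0.64). In MEFs labelled NeuroD2 1 rose and 2 fell, with Phc2 at 0.61, Cbx6 at -0.48 and Mtf2 at -0.38. In P19 cells with NeuroD2 Phc2 rose (1.18) and Cbx7 fell (-0.72), and in P19 cells with MyoD 0 were called. Between MEF and P19 controls, 6 were higher and 11 lower in MEFs (24.8% and 26.9% of all genes), led by Jarid2 (-3.56), Bmi1 (3.43), Cbx7 (-3.11) and Phc1 (-2.97). Of 9 Trithorax and demethylase genes, whose products oppose Polycomb, 1 rose and 1 fell in MEFs with MyoD (Wdr5 at 0.51 and Men1 at -0.41), Kdm6b rose in MEFs labelled NeuroD2 (0.50), 0 were called in P19 cells with either factor, and 6 were lower in MEF than in P19 controls.

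Genes beside the clusters were set next to the Hox genes. Of 13 measured neighbours, 2 rose and 0 fell in MEFs with MyoD (10.8% and 14.5% of all genes), Cbx5 by 1.70 and Calcoco1 by 0.86, both beside Hoxc, where 4 Hox genes fell. Cbx5 was the 1 call in MEFs labelled NeuroD2 (0.73), Smug1 the 1 call in P19 cells with MyoD (0.99), and 0 were called in P19 cells with NeuroD2. Of 14 other homeobox and T-box genes of limb and trunk mesenchyme, 0 rose and 3 fell in MEFs with MyoD (10.8% and 14.5% of all genes) and likewise 0 and 3 in MEFs labelled NeuroD2 (6.41% and 5.94%): Prrx1 by -1.03 and -1.35, Shox2 by -0.72 and -0.94, and Emx2 by -0.59 and -1.01. In P19 cells with NeuroD2, 3 rose, Shox2 by 3.62 (8.12, against 4.50 in controls; limma adjusted p = 1.12e-10), Emx2 by 1.69 and Prrx2 by 0.72, and in P19 cells with MyoD 0 were called.

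Controls of one cell type in different batches show what the Hox genes do with no factor. MEF controls of batch 2 against batch 1 had 0 Hox genes called by limma, against 1.16% of all genes higher and 1.12% lower, and 2 with an unadjusted p under 0.05. Hoxb13 differed most (0.61, limma adjusted p = 0.208), with 5.13, 5.23 and 5.72 in batch 2, against 4.71, 4.80 and 4.75 in batch 1, and Hoxb2 differed by 0.39 (limma adjusted p = 0.321). Without P19 control replicate 2 of batch 1, Hoxb13 (0.61), Hoxc9 (0.28) and Hoxa7 (-0.30) were called, against 6.75% of all genes higher and 9.58% lower. P19 controls of batch 3 against batch 1 had 5 Hox genes higher and 0 lower, against 10.6% and 3.48% of all genes. Hoxd1 read 7.22, 5.85 and 5.69 in batch 3, against 4.82, 4.26 and 5.07 in batch 1 (difference 1.54, limma adjusted p = 0.00129), and Hoxd8 read 6.43, 6.61 and 6.88 against 6.03, 5.79 and 6.03 (0.69, limma adjusted p = 0.00307). The others, Hoxb9 (0.64), Hoxb6 (0.50) and Hoxd9 (0.46), were lost without P19 control replicate 2 of batch 1, where 8.29% of all genes were called higher and 9.14% lower. For Hoxd1 this difference between untransduced cells was larger than its fall in P19 cells with NeuroD2.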

How the data were processed

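Biotin-labelled cRNA was made from total RNA with an Affymetrix One-Cycle kit and hybridised to mouse arrays, 1 per sample, per the labels' protocols. The values are the log2 signals deposited by the authors; the scale was read from their range. The submitters' processing notes name limma, with no version, and nothing further on background correction, normalization or summary was in the labels. Titles and source names gave the groups, batches and replicates, because the characteristics call cells with MyoD neuronally differentiated. Without detection calls, dim genes have compressed differences.

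Of 45101 probe sets, 64 controls, 9160 without a symbol and 932 with several symbols were left out, 3 of which named a pair of Hox genes. The 34945 kept were reduced to the brightest per symbol, 18193 genes; 11 Hox genes had several. Symbols and positions are RefSeq's (GRCm38.p6). With R 4.3.3 and limma 3.58.1, each gene was given 1 mean in each group, with 16 residual and 3.89 prior degrees of freedom from the 24 arrays. Tests were two-sided, adjusted by Benjamini-Hochberg over all genes, and a gene was called, and said to have risen or fallen, at an adjusted p under 0.05. The fit was tested on simulated data with independent normal spread and no odd array or batch difference, so that test says nothing about these. No correction was made over the 11 comparisons; those of MEFs with MyoD and of MEFs with P19 cells share the MEF controls of batch 1, and those of P19 cells with MyoD and of MEFs with P19 cells share the P19 controls of batch 1, so their values stand side by side only. Named Hox genes are up to 6 calls each way with the largest difference per comparison, 4 for differences between effects. Others are shown for their level or their place in a count or cluster, some with array values and tests. The Hox genes, the lists, the tests and the naming rule were chosen with earlier results of these data known. Alternatives were quantile normalization again, a shift to equal medians, no dim genes, the mean of a gene's probe sets, no probe sets that can match several transcripts, only the arrays compared, a replicate block, other controls and leaving out each array.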

Additional observations from a re-analysis of the deposited data

Results flagged for a closer look

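The effects of a factor differed between cell types, or those of the factors within a cell type, in 14 tests on named Hox genes, each by a limma contrast of the effects with an adjusted p under 0.05. For MyoD in MEFs minus MyoD in P19 cells, the difference of log2 differences was -1.79 for Hoxa2, -1.62 for Hoxb6, -1.60 for Hoxc8 and -1.18 for Hoxb2. For NeuroD2, MEFs labelled NeuroD2 minus P19 cells, it was 1.67 for Hoxb9, -1.34 for Hoxc8, -1.16 for Hoxb3, -1.07 for Hoxb2 and -1.04 for Hoxa2. For MyoD minus the label NeuroD2 within MEFs it was -1.79 for Hoxb5, -1.57 for Hoxb6, -1.37 for Hoxb9 and -1.18 for Hoxb2. For MyoD minus NeuroD2 within P19 cells it was -1.07 for Hoxb2. No Neurod2 probe set rose in MEFs labelled NeuroD2. Batch, medium or harvest differ, or may differ, between the groups of several of these tests, so these cannot be told apart from the factor. None of the genes compared between cell types was bright in the P19 groups of its test, where falls could be missed.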

How the results depend on the processing

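Named Hox results were run 720 times over 48 gene and comparison pairs, which for MyoD in MEFs were Hoxa2, Hoxc8, Hoxc6, Hoxb6, Hoxb5 and Hoxd3 alone. Of the runs, 637 kept their direction and side of the threshold, 72 were no longer called, 7 became called and 4 changed direction. The 4 were Hoxa5, at 0.025 without P19 control replicate 2 of batch 1 and 0.072 with the controls of batch 3 for MyoD in P19 cells, and at 1.10 (mean of all probe sets) and 3.50 (no probe sets that can match several transcripts) for MEFs against P19 cells. Leaving out 1 array at a time, which included P19 control replicate 2 of batch 1 in every comparison and was added for those without it after seeing the data, gave 9 to 15 called Hox genes for MyoD in MEFs, 4 to 6 for MEFs labelled NeuroD2, 0 to 14 for MyoD in P19 cells (Hoxa5 differing by -1.67 to 0.025), 1 to 6 for NeuroD2 in P19 cells and 16 to 24 for MEFs against P19 cells. It gave 0 to 3 between MEF controls and 2 to 19 between P19 controls, where 17 and 19 came without batch 1 replicate 1 or 3. For the differences between effects it gave 7 to 11 (MyoD) and 5 to 7 (NeuroD2) between cell types, and 7 to 13 in MEFs and 1 to 4 in P19 cells between factors. Among the settings of this section, shares of all genes were taken only without P19 control replicate 2 of batch 1.

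NeuroD2 in P19 cells kept 1 call with arrays shifted to the same median, without dim genes, with only the arrays compared and with the replicate block. With only the arrays compared there were 3 calls between MEF controls, 0 between P19 controls, 14 for MyoD minus NeuroD2 in MEFs and 0 in P19 cells; the mean of probe sets gave 2 in P19 cells, and the batch 3 controls gave 4 for MyoD in P19 cells. The cause of these shifts was not tested. Hoxc6 with MyoD in MEFs was not called after renewed quantile normalization (limma adjusted p = 0.0965). Replicate numbers were not taken to pair arrays, because not every same-number pair had a correlation over 0.1: of 24 such pairs, at -0.19 to 0.34, 20 were above 0 and 7 over 0.1, against 18 and 4 of 48 pairs with different numbers, and 12 of 24 correlated best with their own number. With the replicate block, 12 Hox genes were called for MyoD in MEFs, 4 for MEFs labelled NeuroD2, 0 for MyoD in P19 cells and 19 for MEFs against P19 cells. The block was not run between control batches, whose numbers lie within different batches. Without detection calls, a dim gene's level has no floor here.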

Other observations

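Antisense transcripts of the clusters, picked out after their values were seen, were read by their symbols on the array. Hoxd3os1, antisense to Hoxd3, averaged 8.58 ± 0.05 in MEFs with MyoD and 9.81 ± 0.24 in controls (SD, n = 3 each), a difference of -1.23 (limma adjusted p = 8.22e-05), beside -1.07 for Hoxd3. It also differed between untransduced MEFs, by -0.82 in batch 2 against batch 1 (limma adjusted p = 0.0378). Hoxb5os differed by -0.45 (limma adjusted p = 0.323), and Hoxa11os by -0.09 (limma adjusted p = 0.813) in MEFs with MyoD. Whether a probe set reads one strand of such a pair was not tested.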
